A study of Arabidopsis thaliana with 4 samples.

Results

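The genes described here are 34 nuclear loci of Arabidopsis thaliana that encode subunits of the photosystem cores, the electron carriers that link them, and the chloroplast ATP synthase. They were picked by locus code from a list of functions that uses no measured value, but the list was drawn up with earlier results of these data known. All 34 were found among the 31346 genes of the deposited table. By complex they are 12 genes of photosystem I, 11 of photosystem II, 8 of electron carriers and 3 of ATP synthase. Transcripts were measured in whole seedlings, 6 d old, of 2 groups with 2 libraries each. ClpD-OE, labelled #5, overexpresses CLPD constitutively in the wild-type background. WT is the wild type. CLPD encodes an unfolding ATPase of the plastid stroma, a partner of the Clp protease, and the study used the line to ask how gene expression responds when a chloroplast precursor protein accumulates. Both ClpD-OE libraries carry a single line number, which leaves the transgene and any other property of that line inseparable. The sources used here name neither the promoter of the transgene nor the growth conditions.

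As background, photosystem II takes electrons from water and passes them through plastoquinone and the cytochrome b6f complex to plastocyanin. Photosystem I moves them from plastocyanin to ferredoxin, from which ferredoxin-NADP reductase makes NADPH, while the proton gradient built along the way drives the ATP synthase. The reaction-centre proteins themselves are encoded in the chloroplast genome, and the deposited table lists 0 organelle genes. The nuclear genes described here supply most of the peripheral, lumenal and stromal subunits, which are made in the cytosol as precursors and imported. In leaves they are among the most abundant nuclear transcripts.

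Bases upstream of the annotated start of 5 of these genes are shown first, read from RefSeq assembly TAIR10.1 on the gene's own strand and cut where another gene begins. FNR1 and FNR2 are shown because this pair of isoforms differed most in its change, and PSBS because it fell most in photosystem II. The paralogs PSBQ1 and PSBQ2 were added after the motif counts were seen, because each holds the G-box more than once. Capitals mark a match to one of the motifs spelled out below the sequences. FNR1 lies at chr5:26453200-26453275 (minus strand), FNR2 at chr1:6942375-6942624 (plus strand) and PSBS at chr1:16869971-16870220 (plus strand). PSBQ1 lies at chr4:11334169-11334351 (plus strand) and PSBQ2 at chr4:2673244-2673493 (minus strand). The bases before PSAD2, the gene that fell most in photosystem I, lie inside its neighbour AT1G03140 and are not shown.
FNR1: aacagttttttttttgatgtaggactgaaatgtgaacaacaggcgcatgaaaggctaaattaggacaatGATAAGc
FNR2: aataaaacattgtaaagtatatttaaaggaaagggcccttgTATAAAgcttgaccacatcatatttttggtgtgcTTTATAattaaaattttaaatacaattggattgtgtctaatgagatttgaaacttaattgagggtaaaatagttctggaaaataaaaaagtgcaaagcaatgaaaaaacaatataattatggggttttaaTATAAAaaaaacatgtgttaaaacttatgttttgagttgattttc
PSBS: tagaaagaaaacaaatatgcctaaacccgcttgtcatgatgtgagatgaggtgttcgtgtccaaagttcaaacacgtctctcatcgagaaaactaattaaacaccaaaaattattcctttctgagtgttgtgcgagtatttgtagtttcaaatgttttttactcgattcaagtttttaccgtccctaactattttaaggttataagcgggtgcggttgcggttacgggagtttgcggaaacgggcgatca
PSBQ1: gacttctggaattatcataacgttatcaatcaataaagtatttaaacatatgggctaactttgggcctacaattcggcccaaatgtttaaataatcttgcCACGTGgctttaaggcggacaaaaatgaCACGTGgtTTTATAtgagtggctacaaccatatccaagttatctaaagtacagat
PSBQ2: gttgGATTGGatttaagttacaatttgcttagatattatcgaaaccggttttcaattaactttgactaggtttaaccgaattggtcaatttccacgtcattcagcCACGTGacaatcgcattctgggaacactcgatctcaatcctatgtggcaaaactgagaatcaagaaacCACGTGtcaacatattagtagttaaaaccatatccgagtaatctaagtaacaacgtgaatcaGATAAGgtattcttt

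Motifs were searched on both strands in the 250 bases before the start of all 34 genes and of 27443 genes in all. The G-box CACGTG, bound by light-signalling bZIP and bHLH factors, was in 6 of the 34 windows (17.6%), against 6.49% of all windows. The I-box GATAAG, an element of light-regulated promoters, was in 9 (26.5%), against 12.3%. In the sequences above, PSBQ1 holds the G-box at 83 and 55 bases before the start and PSBQ2 at 145 and 77 bases. FNR1 holds the I-box at 7 bases before its start, and FNR2 holds neither element but TATAAA or its reverse complement at 209, 175 and 45 bases. The TATA box TATAAA was in 16 windows (47.1%), against 47.3% of all windows, the CCAAT element CCAATC in 4 (11.8%), against 10.2%, and the GLK-type letters AGATTCT in 3 (8.82%), against 6.22%. The evening element AAATATCT was in 1 (2.94%), against 4.79%, and the heat shock element GAANNTTC in 0, against 9.55%. No motif searched was in the PSBS window. Unlike the sequences shown, the windows searched were not cut at other genes. Another gene reached into 18 of the 34 windows, so some matches may lie inside a neighbouring gene. ATPD and PSAH2, both counted for the G-box, had 15 and 32 bases clear of other genes. A match here is a run of letters and not a shown binding site, and members with and without the G-box had median log2 fold changes of -0.72 and -0.75.

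Libraries held 23294451 and 22764333 counts in ClpD-OE, and 20800842 and 21896988 counts in WT. Levels are given as normalized CPM, counts scaled to a common library size, for which library sizes were scaled by edgeR's trimmed mean of M-values (TMM). CLPD (AT5G51070) had 1669 and 1870.4 normalized CPM in ClpD-OE, against 151 and 147 in WT (log2 fold change 3.57 ± 0.0971 SE, edgeR adjusted p = 0.00283). Counts do not separate the transgene from the native gene. Of 18940 genes tested with edgeR's quasi-likelihood test, 740 (3.91%) were lower and 812 (4.29%) higher in ClpD-OE at a Benjamini-Hochberg adjusted p under 0.05. With library totals in place of TMM the counts were 577 lower and 2699 higher, and the median log2 fold change of all tested genes moved to 0.23 from 0.0011. Summed normalized CPM of 6 root markers were 1256 and 1289 in ClpD-OE, against 1223 and 1340.4 in WT, nearly all of it PYK10 (1254 and 1285 in ClpD-OE, against 1221 and 1338 in WT). Of the other root markers tested, CASP1 had a log2 fold change of 1.17 and NRT2.1 of -0.88, while COBL9, EXPA7 and RHD6 were near 0 counts and not tested. Summed normalized CPM of 3 epidermal markers were 158 and 174 in ClpD-OE, against 178 and 166 in WT. Most of it was ATML1 (144 and 160 in ClpD-OE, against 160 and 149 in WT). FAMA had 12.1 and 12.2 in ClpD-OE, against 15.5 and 14.8 in WT (log2 fold change -0.32), and EPF1 had a log2 fold change of -0.09. The 7 seed reserve genes summed to 0.320 and 0.242 in ClpD-OE, against 0.902 and 0.727 in WT, with CRB, CRC and SESA3 at 0 in every library. None of the 3 root and 3 epidermal markers that could be tested was called, and their part in the results below was not tested. In whole seedlings, fewer photosynthetic cells and less RNA per cell cannot be told apart. The labels do not say that replicates were separate cultures, so the p-values describe the spread between these libraries, which may be technical.

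In ClpD-OE, transcripts of 33 of the 34 genes fell and 0 rose, against 3.91% and 4.29% of all tested genes. The gene that was not called was FNR2, for an isoform of ferredoxin-NADP reductase. The median log2 fold change was -0.74, a level of 59.9% of WT, with a range of -1.02 for PSAD2 to 0.23 for FNR2. The same 33 genes had both ClpD-OE libraries below both WT libraries, which held for 29.4% of all tested genes. All 34 are abundant transcripts, and among the 1368 tested genes with a mean at or above that of the lowest of them (118 normalized CPM), 16.4% were called lower and 2.78% higher. DESeq2 also called 33 lower, against 6.43% of all tested genes. At the authors' deposited adjusted p under 0.05, 33 of the 34 were lower, against 1122 of the 18940 tested genes. The authors' log2 ratios of FPKM for the 34 run from -0.80 to 0.45. By log2 fold change alone, 711 tested genes lay below PSAD2 and 6.90% of tested genes lay below the median of the set. This ranking includes genes with wide errors, as the median SE was 0.148 over all tested genes and 0.0736 over the 34. Of all counts, these genes took 5.06% and 5.19% in the ClpD-OE libraries, against 7.17% and 7.17% in the WT libraries, a measure that needs no TMM scaling. Without ClpD-OE replicate 1 the log2 fold changes of the 34 ran from -1.03 to 0.31, and without ClpD-OE replicate 2 from -1.01 to 0.15. With 1 library left in that group, edgeR called none of the 34 and no other gene. DESeq2 called fewer of the 34 than with all libraries. Such a fit assumes that the lone library varies like the other group.

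**Figure D1:**
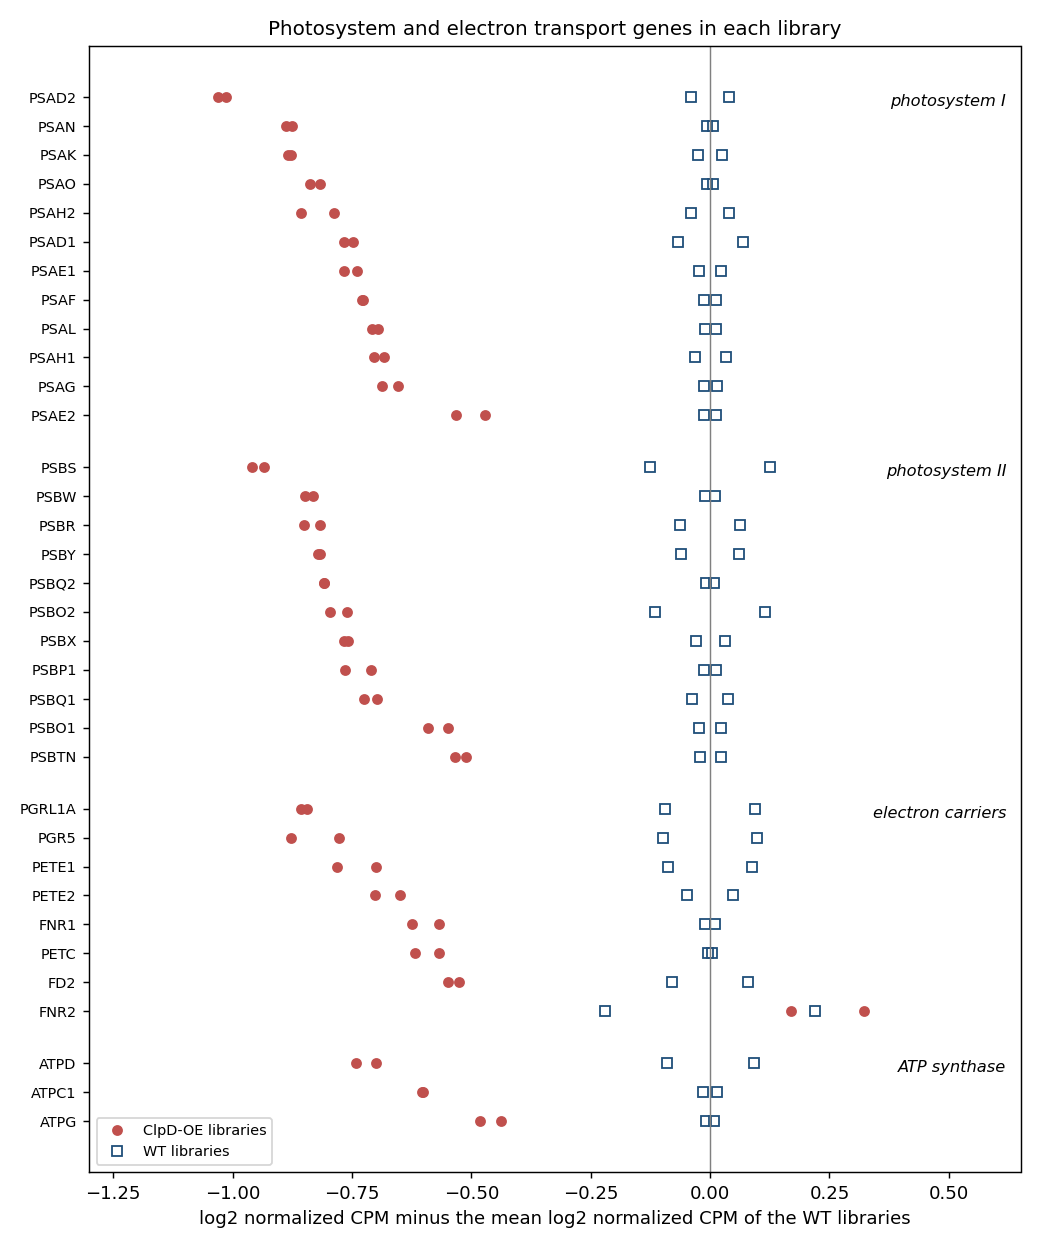
Each row is a gene and each point a library, plotted as log2 normalized CPM minus the mean log2 normalized CPM of the WT libraries. Filled circles are the 2 ClpD-OE libraries and open squares the 2 WT libraries. The groups are apart in 33 of 34 rows, and in the row of FNR2 they overlap.

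All 12 photosystem I genes fell, with a median log2 fold change of -0.76 and edgeR adjusted p between 0.0188 and 0.0289. PSAD and PSAE form the stromal side, where ferredoxin docks. PSAD2 (AT1G03130) had 658 and 649.8 normalized CPM in ClpD-OE, against 1364 and 1292 in WT, the largest fall of the set at 49.2% of WT (log2 fold change -1.02, SE 0.0754, edgeR adjusted p = 0.0188). Its paralog PSAD1 (AT4G02770) had 1445 and 1464 normalized CPM in ClpD-OE, against 2577 and 2345 in WT. PSAE2 (AT2G20260) had 377 and 394 in ClpD-OE, against 540.3 and 550.2 in WT, the smallest fall of the complex at 70.7% of WT. Its call was lost without WT replicate 1 (edgeR adjusted p = 0.0502) and with library totals (adjusted p = 0.0718). PSAE1 (AT4G28750) fell to 59.3% of WT. The largest and the smallest fall of the complex thus both stood on its stromal side, and the groups did not overlap for any of these 4 genes.

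On the lumenal side, PSAF (AT1G31330) and PSAN (AT5G64040) encode subunits that take part in the docking of plastocyanin. PSAF had 3204 and 3209 normalized CPM in ClpD-OE, against 5265 and 5353 in WT, and fell to 60.4% of WT. PSAN had 1134 and 1144 in ClpD-OE, against 2109 and 2092 in WT, and fell to 54.2%. PSAG (AT1G55670) and PSAK (AT1G30380), membrane proteins next to the light-harvesting antenna of photosystem I, fell to 62.8% and 54.3% of WT. PSAH1 (AT3G16140), PSAH2 (AT1G52230), PSAL (AT4G12800) and PSAO (AT1G08380) encode the side that mobile photosystem II antenna can attach to, and their log2 fold changes lay between -0.83 and -0.69. The 4 positions in the complex thus had similar medians of -0.76, -0.80, -0.78 and -0.76, in the order just described. Some of these counts may hold reads of an overlapping gene, since the sources used here do not say whether reads were counted by strand. PSAG shares 479 bases of its 780-base span with AT1G55673 on the opposite strand, which had 24775 and 24054 counts in ClpD-OE, against 29343 and 32455 in WT. PSAE1 shares 436 bases of its 1304-base span with AT4G28755, also on the opposite strand.

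All 11 photosystem II genes fell, with a median log2 fold change of -0.78 and edgeR adjusted p between 0.0188 and 0.0261. PSBS (AT1G44575), which encodes the sensor protein for the rapid dissipation of excess light as heat, had 941 and 924 normalized CPM in ClpD-OE, against 1962 and 1648 in WT. It fell to 51.7% of WT (log2 fold change -0.95, SE 0.106, edgeR adjusted p = 0.0199). On the log2 scale its WT libraries lay 0.25 apart, further than those of any other gene of the complex. The 6 genes around the oxygen-evolving centre had a median log2 fold change of -0.76. Among them PSBO1 (AT5G66570), for the main form of the protein that stabilizes the manganese cluster, had 4215 and 4336 in ClpD-OE, against 6445 and 6249 in WT, and fell least, to 67.4%. Its paralog PSBO2 (AT3G50820) fell to 58.1%. PSBP1 (AT1G06680), for another extrinsic protein of that centre, had 3817 and 3965 in ClpD-OE, against 6541 and 6424 in WT, and fell to 60.0%. PSBQ1 (AT4G21280) and PSBQ2 (AT4G05180), whose upstream bases are shown above, fell to 61.1% and 57.1%.

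PSBR (AT1G79040), needed for stable binding of the extrinsic proteins, had 3785 and 3876 normalized CPM in ClpD-OE, against 7131 and 6538 in WT. Its log2 fold change was -0.84 (SE 0.0799, edgeR adjusted p = 0.0188). The small subunits PSBW (AT2G30570), PSBX (AT2G06520) and PSBY (AT1G67740) fell to 55.9%, 59.0% and 56.6% of WT. PSBTN (AT3G21055), a small lumenal subunit, had 1242 and 1261 in ClpD-OE, against 1771 and 1826 in WT, and fell to 69.6%. The groups of libraries did not overlap for any gene of photosystem II.

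Among the electron carriers 7 of 8 genes fell, and the median log2 fold change over all 8 was -0.64. PETC (AT4G03280), the Rieske iron-sulfur protein of the cytochrome b6f complex, had 899.6 and 931 normalized CPM in ClpD-OE, against 1385 and 1376 in WT, or 66.3% of WT. Of the plastocyanin genes, the main one PETE2 (AT1G20340) had 2670.0 and 2767 in ClpD-OE, against 4485 and 4199.9 in WT, and the minor one PETE1 (AT1G76100) 136 and 129, against 236 and 209. FD2 (AT1G60950), the main leaf ferredoxin, had 1707 and 1679 in ClpD-OE, against 2598 and 2324 in WT, and its log2 fold change of -0.54 was the smallest fall called among the carriers (edgeR adjusted p = 0.0314). PGR5 (AT2G05620) and PGRL1A (AT4G22890), which act in cyclic flow around photosystem I, had lower log2 fold changes than the linear carriers of the set. PGR5 had 87.8 and 81.9 normalized CPM in ClpD-OE, against 161 and 141 in WT, and PGRL1A 287 and 284, against 550.1 and 483. Their log2 fold changes were -0.83 (SE 0.102) and -0.85 (SE 0.0936), against -0.74 to -0.54 for the 5 linear carriers that were called. PETE1, at -0.74, had an SE of 0.0960. PGRL1B, the paralog of PGRL1A outside the set, had -0.55, within the range of the linear carriers. The difference between cyclic and linear carriers was not tested.

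Of the 2 genes for leaf isoforms of ferredoxin-NADP reductase, FNR1 fell and FNR2 was not called. FNR1 (AT5G66190) had 748 and 779 normalized CPM in ClpD-OE, against 1163 and 1145 in WT (log2 fold change -0.60 with an SE of 0.0732, edgeR adjusted p = 0.0232). FNR2 (AT1G20020) had 1149.7 and 1279 in ClpD-OE, against 878 and 1191 in WT (log2 fold change 0.23, SE 0.160, edgeR adjusted p = 0.404). One WT library thus lay between the ClpD-OE libraries for FNR2, and the WT libraries differed by 0.44 on the log2 scale. Without WT replicate 2 FNR2 was called higher (log2 fold change 0.47, edgeR adjusted p = 0.0408), and without WT replicate 1 its log2 fold change was 0.03 (adjusted p = 0.910). The sum of both genes in ClpD-OE was 90.4% of that in WT in normalized CPM but 105% in the authors' FPKM, so its direction depended on the scaling.

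The 3 nuclear ATP synthase genes all fell, with a median log2 fold change of -0.60. ATPD (AT4G09650), for the delta subunit at the top of the catalytic head, had 676 and 657 normalized CPM in ClpD-OE, against 1169.8 and 1031 in WT, or 60.6% of WT. ATPC1 (AT4G04640), for the gamma subunit of the rotating shaft, had 972 and 975 in ClpD-OE, against 1492 and 1464 in WT, or 65.9%. ATPG (AT4G32260), for a subunit of the peripheral stalk, had 778 and 802 in ClpD-OE, against 1079.9 and 1093 in WT, or 72.7%, the smallest fall called in the whole set. Its call was lost with library totals (log2 fold change -0.23, edgeR adjusted p = 0.0869).

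The complexes were compared within each library by the mean log2 normalized CPM of their genes. Photosystem I minus photosystem II was -0.44 and -0.45 in ClpD-OE, against -0.46 and -0.41 in WT, so the groups overlapped. Photosystem I minus the carriers was 0.98 and 0.97 in ClpD-OE, against 1.17 and 1.18 in WT, and photosystem I minus ATP synthase 0.51 and 0.50, against 0.67 and 0.69. Photosystem II differed from the carriers and from ATP synthase in the same direction, by -0.19 and -0.16 (ClpD-OE minus WT). The carriers minus ATP synthase were -0.47 and -0.46 in ClpD-OE, against -0.50 and -0.48 in WT, a difference of 0.02. The groups did not overlap in 5 of the 6 differences, the last and smallest included. An exact permutation test over 2 libraries against 2 cannot give a two-sided p below 0.333. The gap to the carriers rested in part on FNR2. Without it, an alternative chosen after the values were seen, the ClpD-OE minus WT difference between photosystem I and the carriers was -0.08, against -0.20 with all 8. Between photosystem I and ATP synthase it was -0.18. Without FNR2 the carriers thus fell more than ATP synthase, and the sign of the 0.02 difference between these 2 rested on FNR2.

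Levels between genes were compared in the authors' FPKM, which is per length of transcript. PSBR was the most abundant transcript in both groups, at a mean of 5270 ± 139 FPKM in ClpD-OE and 8037 ± 270 in WT (SD, n = 2 each). PGR5 was the least abundant, at 88.8 ± 3.50 FPKM in ClpD-OE and 135 ± 9.22 in WT. PSBP1 ranked second in both groups, and PGRL1A, PETE1 and PGR5 were the last in both. FNR2 was 23rd of 34 in ClpD-OE, at 829 ± 69.4 FPKM, and 31st in WT, at 606 ± 145 FPKM. Across the 34 genes the log2 fold change and the level were nearly unrelated (Spearman rho = -0.07, genes of the same libraries, not independent replicates).

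**Figure D2:**
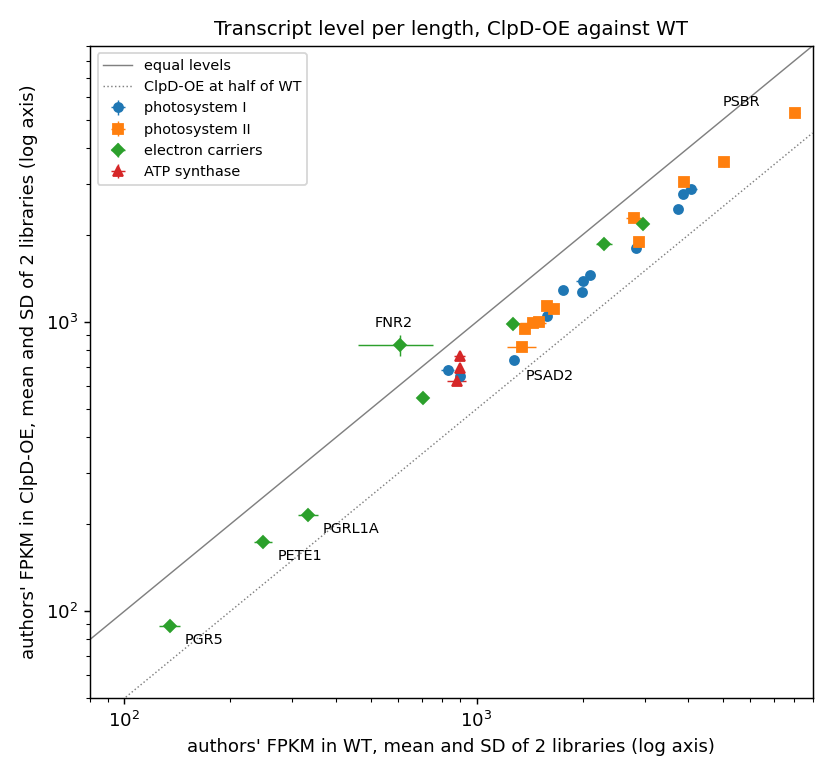
Mean FPKM of each gene, as deposited, in ClpD-OE (vertical axis) against WT (horizontal axis), both on log axes, with SD bars over 2 libraries and the 4 complexes as marker shapes. Apart from FNR2, every gene lies below the line of equal levels, and the genes form a narrow band from PGR5 to PSBR.

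In 7 cases the set holds both paralogs of a subunit, and the share of each was followed within libraries. PSAD1 made up 68.7% and 69.3% of PSAD normalized CPM in ClpD-OE, against 65.4% and 64.5% in WT. PSAE1 made up 74.3% and 73.1% of PSAE in ClpD-OE, against 77.4% and 76.5% in WT. The share of the minor gene was thus higher in ClpD-OE for PSAE and lower for PSAD. PSBO1 made up 77.4% and 78.3% in ClpD-OE, against 74.1% and 76.5% in WT, while the log2 ratios of PSAH1 and PSBQ1 to their paralogs were higher by 0.13 and 0.10. FNR1 made up 39.4% and 37.8% of the normalized CPM of its pair in ClpD-OE, against 57.0% and 49.0% in WT. The change in its log2 ratio to FNR2 was -0.84. PETE1 made up little of the plastocyanin transcripts, with 4.86% and 4.46% in ClpD-OE and 4.99% and 4.73% in WT, and its groups overlapped. For the other 6 pairs the groups did not overlap, with an exact two-sided permutation p of 0.333, the smallest this design allows. Reads that fit both paralogs may have been split in counting. Coding sequences of the pairs were 75.0% to 88.0% identical where aligned, and the longest identical run was 35 bases, between PSAD1 and PSAD2. FNR1 and FNR2 were 75.7% identical with no shared run over 17 bases.

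**Figure D3:**
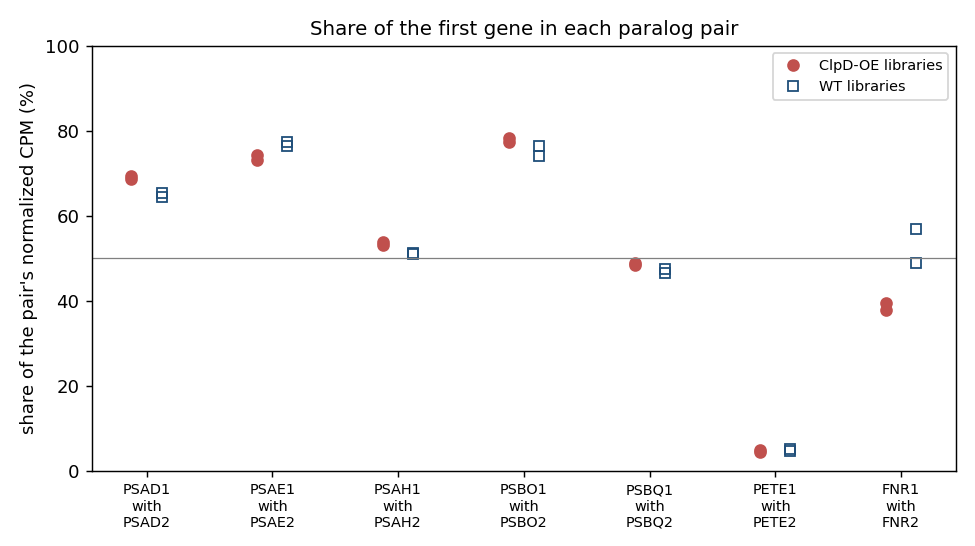
Share of the first-named gene in the summed normalized CPM of each paralog pair, in percent, with 1 point per library (filled circles ClpD-OE, open squares WT). FNR1 shows the widest gap, with 39.4% and 37.8% in ClpD-OE and 57.0% and 49.0% in WT.

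Other gene lists of the thylakoid are given for comparison, beside the 3.91% of all tested genes and 16.4% of the abundant ones that were called lower. The shares called higher were 4.29% and 2.78%. Of 17 light-harvesting antenna genes 17 fell and 0 rose, with a median log2 fold change of -0.93. LHCB2.1 (AT2G05100), whose reads may be shared with its close copy LHCB2.2, fell to 42.2% of WT, LHCA4 (AT3G47470) to 48.8% and LHCB5 (AT4G10340) to 52.4%. Of 18 nuclear genes of the NDH complex, which feeds electrons back into the chain, 6 were called lower and 0 higher. Their median was -0.39, and all 18 had negative log2 fold changes, against 9445 of the 18940 tested genes. DESeq2 called 10 of the 18 lower, against 6.43% of all tested genes. NDHT (AT4G09350) and NDHV (AT2G04039) fell to 48.8% and 54.6% of WT, and PNSB1 (AT1G15980) to 69.0%. Of 13 paralogs and minor subunits outside the set 4 were called lower, with a median of -0.25. They were PSB27 (AT1G03600), a photosystem II assembly protein, the second leaf ferredoxin FD1 (AT1G10960), PGRL1B (AT4G11960) and PETM (AT2G26500) of the cytochrome b6f complex, with log2 fold changes of -0.57, -0.70, -0.55 and -0.42.

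The median log2 fold change of 14 factors for assembly and repair of the photosystems was -0.13. Of the 14, 3 were called lower, beside 3.91% of all tested genes and 16.4% of the abundant ones. They were PSA3 (AT3G55250), HCF173 (AT1G16720), needed for translation of the D1 reaction-centre protein, and PSB33 (AT1G71500), at 70.4%, 65.5% and 76.8% of WT. Of 4 genes of thylakoid regulation only STN7 (AT1G68830), the kinase of state transitions, fell, to 65.1% of WT, while STN8, TAP38 and PTOX were not called. No gene of these 5 lists was called higher, beside 4.29% of all tested genes and 2.78% of the abundant ones. Both ClpD-OE libraries lay above both WT libraries for 3 of the 14 assembly factors and 1 of the 13 paralogs and minor subunits. The same held for 5775 of the 18940 tested genes. Both lay below both WT libraries for 8 of the 14 assembly factors and 8 of the 13 paralogs and minor subunits. So they did for 17 of the 18 NDH genes, all 17 antenna genes and 1 of the 4 regulation genes, against 29.4% of all tested genes. Against the medians of these lists stood the median of all tested genes at 0.0011. The lists differ in expression level as well as in role, and the difference between lists was not tested.

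**Figure D4:**
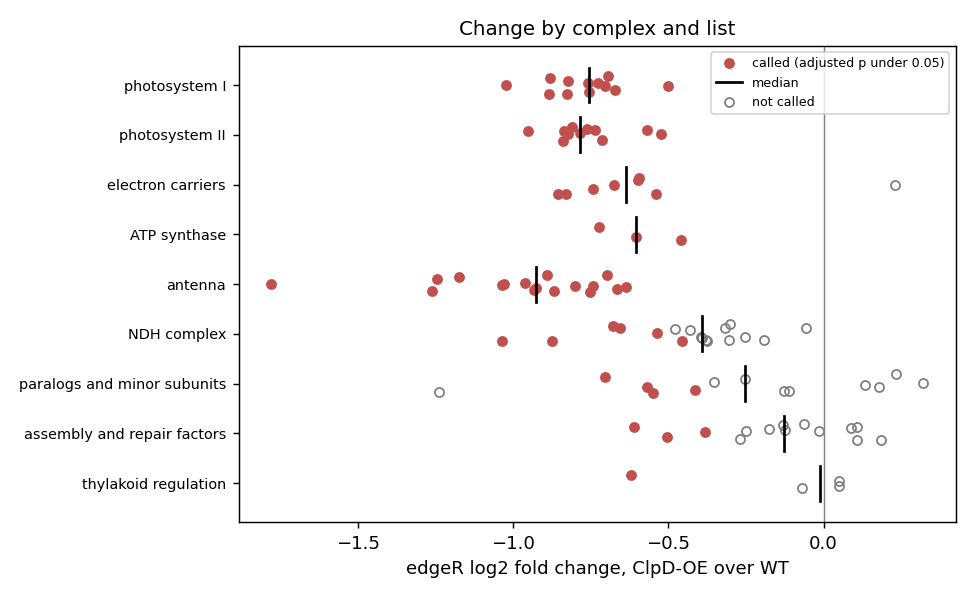
edgeR log2 fold change of ClpD-OE over WT for each gene, by complex and neighbouring list, with filled points for genes called at an adjusted p under 0.05, open points for genes not called and a bar at each median. The photosystem, carrier and ATP synthase rows have medians from -0.78 to -0.60, the antenna -0.93, and the assembly factors -0.13.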

How the data were processed

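Groups come from the genotype labels. The authors deposited 1 table with whole-number estimated counts, FPKM, a log2 fold change of mean FPKM, and a p-value with its adjusted value. Per the submitters' processing notes, the build was TAIR10 and the tools included RSEM, HISAT2, StringTie 1.3.1, DESeq2, Bowtie2 2.2.8 and fastp 0.18.0, in roles not given there. The deposited counts were treated as RSEM-type estimates, and rounding changed 0 of them. The test was that of edgeR 4.0.16, run in R 4.3.3 (TMM, filterByExpr by group, quasi-likelihood test with genotype as the only term), with Benjamini-Hochberg adjustment over all 18940 genes that passed the filter, which all 34 members did. TMM factors were 1.07 and 1.09 for ClpD-OE and 0.907 and 0.943 for WT. A standard error is the log2 fold change divided by the square root of F. Log ratios of paralogs used normalized CPM plus 0.5. FPKM values as deposited by the authors served for levels between genes. Chi-square per degree of freedom between replicates was 10.6 in ClpD-OE and 19.4 in WT, so replicates differed beyond counting noise.

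Loci were matched by locus code to RefSeq assembly TAIR10.1, which gave upstream sequences (Biopython 1.88) and overlaps. Its difference from TAIR10 was not examined. The procedure was checked on simulated counts, in which the changes set were larger than those of most of the 34 genes. Calls at the size of most of these genes were thus not checked by it. Alternatives were DESeq2 1.42.0 as a test and its size factors, library totals, upper-quartile factors, other filters, the newer edgeR fit, a replicate block, and leaving out each library. All 34 members are named, with CLPD and up to 3 called genes with the smallest p from each neighbouring list; PETM and the genes not called in thylakoid regulation were named after their values were seen. Members and lists were chosen with earlier results of these data known. No table of proteins was used here.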

Additional observations from a re-analysis of the deposited data

How the results depend on the processing

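The count of the 34 genes called lower stayed at 33 with DESeq2's test or size factors, upper-quartile factors, no filter, a minimum of 1 CPM in 2 libraries, the newer quasi-likelihood fit and the replicate block, and was 31 with library totals. Leaving out 1 library gave 0 to 33 by edgeR, with 0 calls without either ClpD-OE library, and DESeq2, an alternative chosen after seeing the data, gave 28 and 30 without WT replicates 1 and 2, and 16 and 12 without ClpD-OE replicates 1 and 2. In these fits the lone library is assumed to vary like the other group. Genes called higher among the 34 numbered 0 to 1, the 1 being FNR2 without WT replicate 2. All 33 kept a negative log2 fold change under every alternative run. Over all genes, 1217 were lower with DESeq2, and 1885 lower and 1628 higher with the replicate block, 2699 higher with library totals, and 0 to 1602 lower and 0 to 1179 higher with 1 library left out. The share of lower among calls was 47.7%, and 17.6% with library totals, and the causes were not tested. Medians with library totals were -0.53 (photosystem I), -0.55 (photosystem II), -0.41 (carriers) and -0.38 (ATP synthase), a shift close to that of the median of all genes, 0.23. Upper-quartile factors gave -0.72 for photosystem I, -0.60 for carriers and -0.56 for ATP synthase. With 1 library left out they ranged from -0.80 to -0.74, -0.82 to -0.73, -0.67 to -0.61 and -0.62 to -0.59 for the complexes in the same order. The share of the set relative to WT was 71.4% in counts and 72.5% in FPKM. Deviations of same-numbered libraries correlated at 0.29 over 18940 genes, but with 2 pairs and no label that ties them, the numbers were not taken to pair the libraries.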
